A study of Mus musculus with 3 samples.

Results

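The CCN proteins and the genes around the Hippo pathway were measured in an established line of mouse mesenchymal cells, C3H10T1/2, with Affymetrix mouse genome arrays. Of 18193 genes with a probe set of their own, 10 are described here: Ccn1 (Cyr61), Ccn2 (Ctgf), Ccn3 (Nov), Ccn4 (Wisp1), Ccn5 (Wisp2), Ankrd1, Amotl2, Yap1, Wwtr1 and Lats2. They were picked by name, with earlier results of these arrays known, and were read by 24 of the 34945 probe sets that carry exactly 1 gene symbol. The study hybridized 1 array for each of 3 conditions. These are cells with a retrovirus for Mkx fused to the fluorescent protein Venus (Venus-Mkx), cells with a retrovirus for Venus alone (Venus) and untransduced cells (C3H10T1/2). The labels give 1 growth medium, α-MEM with fetal bovine serum and antibiotics. The methods also name puromycin in the medium of the transduction, and whether the untransduced cells received it is not given. The cultures come from 1 cell line, and the transgenes are carried by retrovirus. With 1 array per condition there is no replicate check of any difference, so neither p-values nor SEs are given. Precision is limited by this number of arrays. Values are log2 expression values as deposited, and differences are log2 differences between arrays for the same probe set. Levels of different probe sets are not comparable as amounts of RNA. They were set side by side to choose a probe set for each gene, to apply a common cut-off for measured genes and to sum markers.

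CCN proteins are secreted matricellular proteins built from shared modules, which bind integrins, proteoglycans and growth factors and so adjust how cells attach to and read their matrix. CCN2, also called connective tissue growth factor, is widely used to drive mesenchymal stem cells towards fibroblasts. In the Hippo pathway, MST kinases (Stk3 and Stk4) with the scaffold Sav1 activate LATS kinases (Lats1 and Lats2) with their Mob1 partners, and LATS phosphorylates YAP (Yap1) and TAZ (Wwtr1), which keeps them out of the nucleus. Unphosphorylated YAP and TAZ enter the nucleus, bind TEAD factors and turn on genes, of which Ccn1, Ccn2 and Ankrd1 are the usual reporters. Amotl2 and Lats2 are targets that also restrain YAP and TAZ. Stiff matrix, cell spreading and actin tension raise YAP and TAZ activity, which is why the pathway is studied in tendon, ligament and other load-bearing tissues.

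Of the 4 genes that differed at least 2-fold from both controls, Ankrd1 and Ccn1 have a window in the promoter sequences used here. Both windows are shown first because TEAD factors are known to bind the motif GGAATG, which was searched on both strands (CATTCC is its reverse complement). The sequences are from RefSeq on GRCm38.p6 and run 5′ to 3′ over the 250 bases before and the 50 bases from an annotated start site, with the motif in capitals. The Ankrd1 window is chr19:36119795-36120094 on the minus strand and the Ccn1 window is chr3:145649936-145650235 on the minus strand.
Ankrd1: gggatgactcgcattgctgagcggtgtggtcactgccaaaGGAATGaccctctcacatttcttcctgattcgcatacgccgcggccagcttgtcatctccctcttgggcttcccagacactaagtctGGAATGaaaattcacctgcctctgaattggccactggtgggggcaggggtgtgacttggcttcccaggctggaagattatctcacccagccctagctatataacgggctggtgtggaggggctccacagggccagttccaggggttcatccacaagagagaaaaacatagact
Ccn1: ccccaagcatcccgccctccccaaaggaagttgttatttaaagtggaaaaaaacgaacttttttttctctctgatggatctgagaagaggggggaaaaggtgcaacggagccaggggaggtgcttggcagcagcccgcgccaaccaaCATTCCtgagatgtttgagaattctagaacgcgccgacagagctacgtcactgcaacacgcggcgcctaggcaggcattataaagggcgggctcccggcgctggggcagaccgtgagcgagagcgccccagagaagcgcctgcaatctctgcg
Ankrd1 holds the motif at 2 places, whose first bases lie at −210 and −123 from the start site, whereas Ccn1 holds it at 1 place, at −103 and as the reverse complement.

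A promoter window was found for 6 of the 10 genes, all but Ccn2, Ccn3, Ccn4 and Ccn5. All 6 genes had the motif in at least 1 window, against 16.6% of 27025 genes and 14.7% of 32851 windows of the same length. Ccn1, Ankrd1, Amotl2 and Lats2 are known YAP and TAZ targets, and the genes were picked by name, so this share only describes the set. A match is not a binding site.
Amotl2: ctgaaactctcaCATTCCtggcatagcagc
Yap1: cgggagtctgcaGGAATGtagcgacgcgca
Wwtr1: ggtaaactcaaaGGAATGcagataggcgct
Lats2: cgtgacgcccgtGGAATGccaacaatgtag
These 30-base stretches show the same motif in the genes that were not called. They lie at chr9:102717727-102717756 on the plus strand for Amotl2, and on the minus strand at chr9:8004720-8004749 for Yap1, chr3:57576029-57576058 for Wwtr1 and chr14:57746102-57746131 for Lats2. The Wwtr1 match is shared by its 2 overlapping windows, and the second Lats2 window has no match. Neither the CArG box of serum response factor, found in 1.63% of all windows, nor the AP-1 motif TGANTCA, found in 7.81%, occurred in any of the 8 windows. That says only that these letters are not there.

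**Figure D1:**
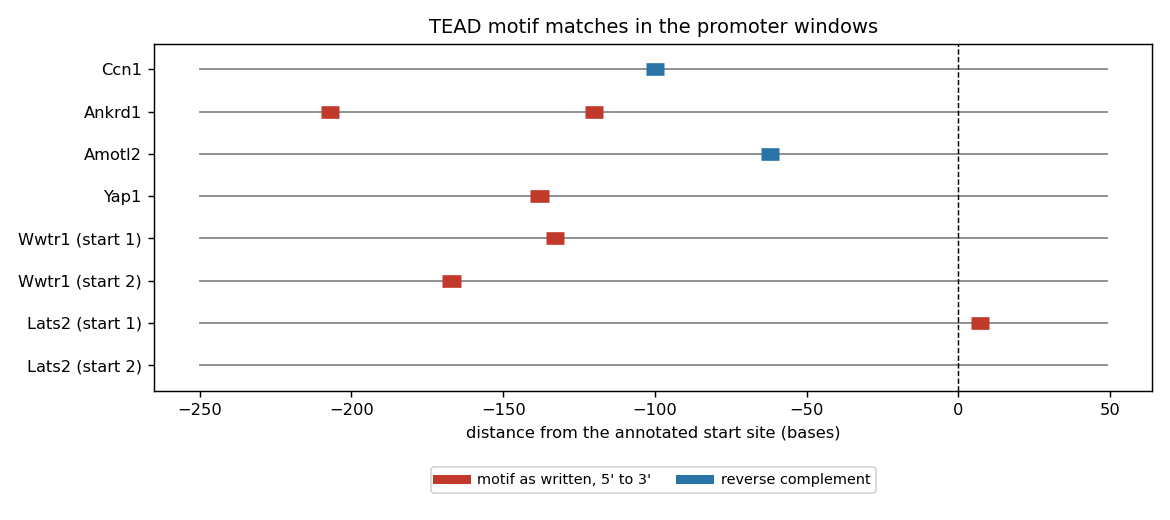
Position of the TEAD motif in the 8 promoter windows of 6 genes, in bases from the annotated start site. Grey lines are the windows, red blocks the motif as written and blue blocks its reverse complement. Ankrd1 has 2 blocks, and the second window of Lats2 has none.

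Mkx itself was read by 1 probe set, 1437492_at, with 2.71 on the array labelled Venus-Mkx, against 7.43 in Venus and 6.88 in C3H10T1/2. Mkx was thus lowest on the array labelled for it. The methods name coding sequences as the insert of the vector, and whether the probe set lies within them is not known here. This value therefore does not settle the label in either direction. Venus-Mkx stands throughout for the array with that label, and every direction given for it rests on the label. A gene was counted as measured when its highest value reached the median over all arrays, 4.34, which held for 11205 genes. A gene was called lower or higher when it differed at least 2-fold in the same direction from both Venus and C3H10T1/2. All 10 genes were measured, and each is represented by its probe set of highest mean, marked by filled symbols in the plot of values by array. Of 11 mesenchymal marker genes with a probe set, all 11 lay above the median of all values on each array, with summed log2 values of 122.0, 118.0 and 116.6 in Venus-Mkx, Venus and C3H10T1/2. The largest differences from Venus were 2.01 for Twist2, 1.42 for Thy1 and 1.34 for Col1a1. Vim, Pdgfra, Fn1 and Pdgfrb went the other way, by −0.44, −0.69, −0.19 and −0.10. Of the markers of other cell types, Csf1r of macrophages, Epcam of epithelium and Des and Mylpf of skeletal muscle lay above the median of all values on all 3 arrays. Of 5 skeletal muscle markers, 3 reached that median in Venus-Mkx, 4 in Venus and 4 in C3H10T1/2. Tek of endothelium did in Venus-Mkx and C3H10T1/2, whereas Ptprc, Adgre1, Pecam1, Cdh5 and Cdh1 lay below that median on all 3. Csf1r read 6.62 in Venus-Mkx, 5.39 in Venus and 4.45 in C3H10T1/2, and Tek read 5.95, 4.02 and 4.53, so both were highest in Venus-Mkx. The summed log2 values of 5 skeletal muscle markers were 22.1, 26.3 and 25.5. Most of that gap lay in Myog and Mylpf, which differed from Venus by −2.39 and −1.58, whereas Myod1 and Ckm differed by −0.46 and 0.14 and Des read 4.87 on all 3 arrays. Myog read 3.76 in Venus-Mkx, below the median of all values. With that value raised to the median, Myog differed by −1.81 from Venus and −1.19 from C3H10T1/2. The gap between the 3′ and 5′ control probe sets of Actb was 0.65 in Venus-Mkx, 0.50 in Venus and 0.46 in C3H10T1/2. The part of these values in the results was not tested. In bulk RNA, fewer cells of a type and less RNA per cell cannot be told apart.

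Expression of 3 CCN genes was lower on the array labelled Venus-Mkx than on both control arrays, and Ankrd1 was higher. Of the 3, Ccn2 differed most, by 6.68-fold to 6.92-fold from the controls, followed by Ccn3 and Ccn1 with the probe sets that stand for them. The order of Ccn3 and Ccn1 depends on the probe set. With others, Ccn1 lay 4.14-fold below Venus (1438133_a_at) and 4.20-fold below C3H10T1/2 (1442340_x_at), against at most 3.99-fold and 2.57-fold for Ccn3. With the probe set that stands for each gene, the other CCN genes, Ccn4 and Ccn5, and Amotl2, Yap1, Wwtr1 and Lats2 stayed within 2-fold of both controls. Thus 3 of 10 genes were called lower, against 5.32% of all measured genes, and 1 was called higher, against 6.82%. Since the genes were picked with these arrays known, nothing is read from these shares. The median difference of the 10 genes was −0.06 from Venus and −0.10 from C3H10T1/2, against 0.00 and 0.00 over all measured genes. From Venus it was −0.33 where the probe sets of each gene were averaged.

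**Figure D2:**
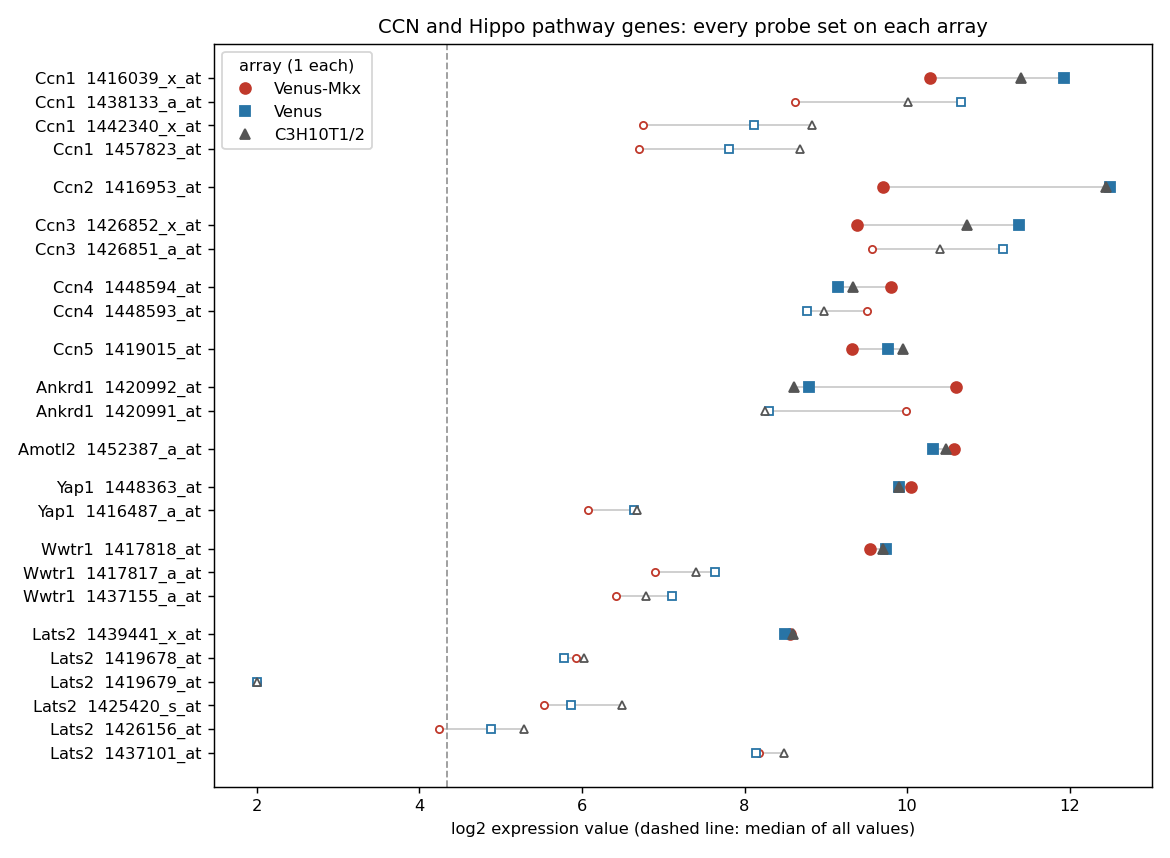
Log2 expression value of each of the 24 probe sets on the arrays Venus-Mkx (red circles), Venus (blue squares) and C3H10T1/2 (grey triangles), 1 array each. Filled symbols mark the probe set that stands for the gene, and the dashed line is the median of all values, 4.34. Venus-Mkx is the lowest for all 7 probe sets of Ccn1, Ccn2 and Ccn3 and the highest for both of Ankrd1.

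Ccn2, a secreted protein induced by TGFβ, by actin tension and by YAP, was read by the single probe set 1416953_at. Its log2 value was 9.70 in Venus-Mkx, against 12.49 in Venus and 12.44 in C3H10T1/2. The control arrays nearly coincided, and the difference was −2.79 relative to Venus and −2.74 relative to C3H10T1/2. Of all measured genes, 1.04% lay further below Venus than Ccn2 did.

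Ccn1, a secreted ligand of integrins that is induced within minutes by serum and by YAP, had 4 probe sets, all lower than both controls by at least 2-fold. With 1416039_x_at the value was 10.29 in Venus-Mkx, 11.93 in Venus and 11.41 in C3H10T1/2. With 1438133_a_at it was 8.62 in Venus-Mkx, 10.67 in Venus and 10.01 in C3H10T1/2. The probe set 1442340_x_at gave 6.75, 8.12 and 8.82, and 1457823_at gave 6.70, 7.81 and 8.68, in the same order of arrays. Venus-Mkx was thus the lowest array on all 4, with differences of −2.05 to −1.12 relative to Venus and −2.07 to −1.12 relative to C3H10T1/2. The controls were ordered in opposite ways, since Venus minus C3H10T1/2 was 0.53 and 0.66 on the first pair of probe sets and −0.71 and −0.87 on the second pair. The annotation gives that second pair the same transcript accession, so they are not independent readings, and probe sets marked _x_at can bind other transcripts.

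Ccn3, a CCN protein that restrains proliferation and often opposes CCN2, was the third lower gene, but its call depends on the probe set. The probe set 1426852_x_at gave 9.38 in Venus-Mkx, 11.38 in Venus and 10.74 in C3H10T1/2, differences of −2.00 and −1.36. The probe set 1426851_a_at gave 9.57, 11.18 and 10.40, and its difference of −0.84 from C3H10T1/2 is less than 2-fold. Both place Venus-Mkx lowest and Venus highest, with Venus 0.64 and 0.78 above C3H10T1/2.

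Ccn4, a target of WNT signalling found in bone and wound matrix, lay on the other side of the controls without reaching 2-fold. Its probe set 1448594_at gave 9.80 in Venus-Mkx, 9.16 in Venus and 9.33 in C3H10T1/2, and 1448593_at gave 9.51, 8.77 and 8.98. Venus-Mkx was the highest array on both, with differences of 0.65 and 0.73 relative to Venus and 0.47 and 0.53 relative to C3H10T1/2. Ccn5, which lacks the C-terminal module of the other family members, gave 9.32 in Venus-Mkx, 9.77 in Venus and 9.95 in C3H10T1/2. It was the lowest in Venus-Mkx, with differences of −0.45 and −0.63. The CCN genes therefore ran in different directions, with 4 of 5 below both controls and 1 above, 3 of them past 2-fold.

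Ankrd1, a nuclear and sarcomeric ankyrin repeat protein whose gene is a common reporter of YAP activity, was the gene called higher. Its log2 value with 1420992_at was 10.60 in Venus-Mkx, 8.79 in Venus and 8.61 in C3H10T1/2. With 1420991_at it was 9.99 in Venus-Mkx, 8.30 in Venus and 8.25 in C3H10T1/2. Venus-Mkx was the highest array on both probe sets, with differences of 1.80 and 1.69 relative to Venus and 1.99 and 1.74 relative to C3H10T1/2, or 3.23-fold to 3.98-fold. Of all measured genes, 3.36% lay further above Venus. Ankrd1 and the pair Ccn1 and Ccn2, which are used together as readouts of YAP and TAZ, thus lay on opposite sides of both controls.

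**Figure D3:**
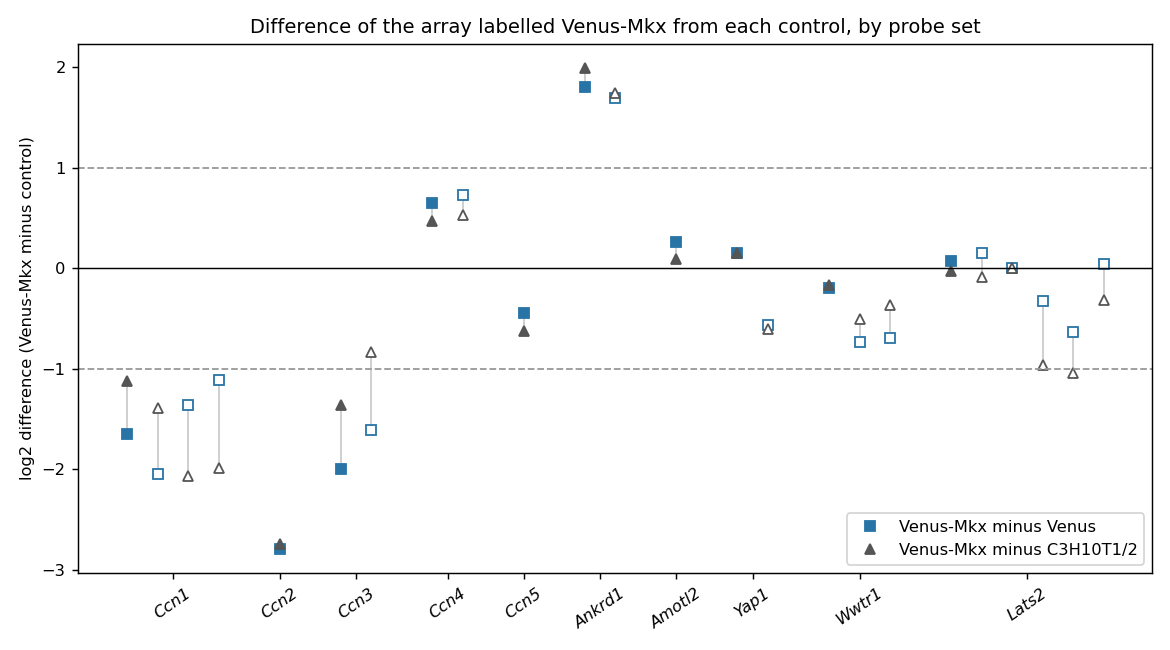
Log2 difference of Venus-Mkx from Venus (blue squares) and from C3H10T1/2 (grey triangles) for every probe set of the 10 genes. Filled symbols mark the probe set that stands for the gene and dashed lines mark a 2-fold difference. Ccn2 lies at −2.79 and −2.74, Ankrd1 at 1.80 and 1.99, and the probe sets that stand for Amotl2, Yap1, Wwtr1 and Lats2 lie between −0.19 and 0.26.

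Yap1, the transcriptional coactivator YAP, differed little on its brighter probe set and was lower on the dimmer one. The probe set 1448363_at gave 10.05 in Venus-Mkx and an equal 9.91 in Venus and C3H10T1/2, a difference of 0.15 from each. The probe set 1416487_a_at gave 6.07 in Venus-Mkx, 6.64 in Venus and 6.68 in C3H10T1/2, a difference of −0.57 and −0.61. The probe sets disagree on the sign, so no direction is given for Yap1.

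Wwtr1, the coactivator TAZ, was lowest in Venus-Mkx on all 3 probe sets, each within 2-fold. The probe set 1417818_at gave 9.54 in Venus-Mkx, 9.74 in Venus and 9.71 in C3H10T1/2. The other probe sets differed more, with 6.90 in Venus-Mkx, 7.64 in Venus and 7.40 in C3H10T1/2 for 1417817_a_at, and with 6.41, 7.11 and 6.78 for 1437155_a_at. Differences from Venus ran from −0.74 to −0.19, and those from C3H10T1/2 from −0.50 to −0.16.

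Amotl2, an angiomotin family protein that binds and retains YAP, gave 10.58 in Venus-Mkx, 10.32 in Venus and 10.48 in C3H10T1/2. Its difference was 0.26 from Venus and 0.09 from C3H10T1/2. Lats2, a kinase that phosphorylates YAP and TAZ, had 6 probe sets, of which 1439441_x_at gave 8.56 in Venus-Mkx, 8.50 in Venus and 8.59 in C3H10T1/2. Of the others, 1437101_at gave 8.18 in Venus-Mkx, 8.14 in Venus and 8.49 in C3H10T1/2, and 1419678_at gave 5.93, 5.78 and 6.02. The probe sets 1425420_s_at, with 5.53, 5.86 and 6.49, and 1426156_at, with 4.24, 4.87 and 5.28, were lowest in Venus-Mkx. The last, 1419679_at, held 2.00 on all 3 arrays. Lats2 differences from Venus ran from −0.63 to 0.15 and those from C3H10T1/2 from −1.04 to 0.00, so its probe sets also disagree.

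By probe set, 6 of the 23 measured probe sets of the 10 genes were called lower, against 5.43% of all measured probe sets, and 2 were called higher, against 5.73%. The 6 belong to Ccn1, Ccn2 and Ccn3 and the 2 to Ankrd1. Probe sets of 1 gene share their RNA and are not replicates.

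None of the 10 genes differed at least 2-fold between Venus and C3H10T1/2, against 2.03% of all measured genes. This is a count past a fold, not a test. The largest such differences were 0.64 for Ccn3 and 0.53 for Ccn1, and the other 8 ran from −0.18 to 0.19. Over all probe sets, Venus minus C3H10T1/2 ran from −0.87 for one of Ccn1 to 0.78 for one of Ccn3, and was −0.63 for one of Lats2. Over all measured genes the SD of the log2 difference was 0.94 between Venus-Mkx and Venus, 1.03 between Venus-Mkx and C3H10T1/2 and 0.34 between Venus and C3H10T1/2. The comparisons with Venus and with C3H10T1/2 share the Venus-Mkx array.

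Of 42 genes listed as other Hippo components, 38 had a probe set and 34 were measured. Of these, 2 were called lower and 1 higher, or 5.88% and 2.94%, against 5.32% and 6.82% of all measured genes. Fat4, a giant cadherin whose fly relative Fat acts upstream of the pathway, was called higher with 10.63 in Venus-Mkx, 9.56 in Venus and 9.37 in C3H10T1/2. Its other probe set, 1459749_s_at, was not called, with 9.89 in Venus-Mkx, 9.26 in Venus and 8.57 in C3H10T1/2. Map4k4, a kinase that can phosphorylate LATS, was called lower with 8.24 in Venus-Mkx, 9.42 in Venus and 9.34 in C3H10T1/2. Its probe sets 1422615_at and 1448050_s_at were also called lower. The Map4k4 probe set 1440609_at was not called, at −0.35 from Venus and −0.73 from C3H10T1/2. Tead4, a TEAD factor, read 3.09 in Venus-Mkx, 4.57 in Venus and 5.03 in C3H10T1/2, so it counted as lower, but its Venus-Mkx value lay below the median of all values and a 2-fold difference is not shown. The other 31 ran from −1.07 to 1.32 relative to Venus. The median was 0.00 from Venus and from C3H10T1/2, against 0.00 over all measured genes.

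With the probe set that stands for each gene, none of the kinase core genes given here was called. Of all measured genes, 12.1% were called lower or higher, so nothing is read from this count over so few genes. Lats1, the second LATS kinase, read 9.43 on all 3 arrays. The MST kinase gene Stk4 differed from Venus by 0.26 and from C3H10T1/2 by 0.15, and the scaffold gene Sav1 by −0.20 and −0.29. The LATS cofactor genes Mob1a and Mob1b differed from Venus by −0.23 and −0.89 and from C3H10T1/2 by −0.42 and −1.17. Nf2, which encodes merlin, an activator of LATS at the membrane, differed by 0.75 and 0.67. The angiomotin genes Amot and Amotl1 differed from Venus by −0.23 and −0.10 and from C3H10T1/2 by 0.43 and 0.17. Stk3 had no probe set with its symbol alone in the name table used.

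Among the partners of YAP and TAZ in the nucleus, Tead1 read 10.27 in Venus-Mkx, 10.22 in Venus and 10.26 in C3H10T1/2. Differences from Venus and C3H10T1/2 were 0.00 and −0.08 for Tead3, and −1.07 and −0.56 for Tead2. Vgll3, a cofactor that competes for TEAD factors, read 9.96 in Venus-Mkx, 10.92 in Venus and 11.16 in C3H10T1/2, a difference of −0.96 and −1.20. Vgll4, a TEAD corepressor, differed by 0.32 and 0.30.

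The other genes known as targets of YAP and TAZ with TEAD factors were spread to both sides. Of 32 listed genes, 30 had a probe set and 29 were measured, and 8 were called lower, 5 higher and 16 neither. These shares of 27.6% lower and 17.2% higher stand against 5.32% and 6.82% of all measured genes. Their median difference was −0.45 from Venus and −0.28 from C3H10T1/2, against 0.00 over all measured genes. This list, like the other gene lists, was chosen with earlier results of these arrays known. Nothing is therefore read from its shares or median. Ajuba and Ptpn14 belong to this list and to the Hippo components.

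The lower targets were led by Ddah1, which degrades inhibitors of nitric oxide synthase, with 4.76 in Venus-Mkx, 9.61 in Venus and 10.06 in C3H10T1/2. The Ddah1 probe set 1434519_at, near the median of all values, was not called, at −0.51 from Venus. Its remaining probe sets were called lower. Cavin2, a coat protein of caveolae, read 6.27 in Venus-Mkx, 10.93 in Venus and 10.90 in C3H10T1/2. Its other probe sets, with differences of −4.92 and −4.94 from Venus, ran the same way. F3, which encodes tissue factor, read 7.50 in Venus-Mkx, 10.42 in Venus and 10.11 in C3H10T1/2. Col8a1, a chain of type VIII collagen, read 5.40 in Venus-Mkx, 8.69 in Venus and 10.66 in C3H10T1/2, and its difference between Venus and C3H10T1/2 was already −1.97. Of its other probe sets, 1418440_at was called lower and 1418441_at was not, at −0.87 from Venus. The remaining lower targets were Ccdc80 (a matrix protein), Gadd45a (a stress response gene), Crim1 (a BMP-binding membrane protein) and Myof (a membrane repair protein), from −1.47 to −1.09 relative to Venus. A second Crim1 probe set, 1452253_at, was not called, at −0.54 from Venus.

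The higher targets were Igfbp3, Sh2d4a, Nuak2, Tgm2 and Fjx1. Igfbp3, which binds insulin-like growth factors in the extracellular space, read 9.42 in Venus-Mkx, 3.39 in Venus and 3.48 in C3H10T1/2. Both controls lay below the median of all values, so it was at least 33.9-fold higher, taking that median as the control level. Nuak2, a kinase acting on actomyosin, read 9.26 in Venus-Mkx, 7.82 in Venus and 7.94 in C3H10T1/2. Tgm2, a transglutaminase that crosslinks matrix proteins, read 9.26 in Venus-Mkx, 7.83 in Venus and 7.95 in C3H10T1/2. Its dim probe set 1426004_a_at was not called, at 0.20 from Venus, and its other measured probe sets were called higher. Sh2d4a, an adaptor protein gene, was at least 2.10-fold higher in the same sense. Fjx1, whose fly relative modifies the cadherins Fat and Dachsous, differed by 1.04 from Venus and 1.00 from C3H10T1/2, at the edge of the call.

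Targets of serum response factor (SRF) with its actin-sensing cofactors, the MRTF proteins, were also listed, because Ccn1, Ccn2 and Ankrd1 are known to respond to them. Of 22 genes, all measured, 7 were called lower, against 5.32% of all measured genes. None was called higher, against 6.82%, and 15 were neither. Since this list too was chosen with earlier results of these arrays known, nothing is read from its shares or median. The median of the list was −0.71 from Venus and −0.46 from C3H10T1/2, against 0.00 over all measured genes. Of the 22, 17 (77.3%) lay below both controls, against 39.9% of all measured genes. The share below both was 62.1% for the YAP and TAZ targets, 54.5% for the CCN receptors listed below and 35.3% for the Hippo components. Fhl1, a LIM protein of muscle, read 8.33 in Venus-Mkx, 12.14 in Venus and 11.58 in C3H10T1/2. Acta2, smooth muscle actin, read 10.42 in Venus-Mkx, 13.17 in Venus and 13.04 in C3H10T1/2. Vcl, the focal adhesion protein vinculin, read 10.29 in Venus-Mkx, 11.93 in Venus and 11.80 in C3H10T1/2. Its other probe set, 1416157_at, which barely reached the median of all values, was not called, at −0.98 from Venus. Actg2, Fhl2 and Ctnnal1 differed from Venus by −2.60, −2.31 and −1.80, and a second Ctnnal1 probe set, 1420929_at, was not called, at −0.95. Cnn1, which encodes calponin, counted as lower with −1.43 and −1.01, but read 4.24 in Venus-Mkx, below the median of all values, and with that value raised to the median its fold below C3H10T1/2 was 1.89. Srf itself differed by −0.68 and −0.35 from Venus and C3H10T1/2, and Mrtfa and Mrtfb by −0.79 and −0.35 from Venus. Srf, Mrtfa and Mrtfb were among the 22 listed genes and count in the median and shares given for the list. Of the muscle markers given above, Myog and Mylpf were lower in Venus-Mkx as well, and their part in this was not tested.

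Receptors through which CCN proteins act on cells were listed too. Of 13 genes, 11 were measured. Of these, 1 was called lower, against 5.32% of all measured genes, 1 higher, against 6.82%, and 9 neither. The median was −0.29 from Venus and −0.14 from C3H10T1/2, against 0.00 over all measured genes. It gives no direction, since from Venus it was 0.00 with no floor or without probe sets marked _x_at or _s_at, and 0.04 with the floor at the 75th percentile. Itgb3, the integrin β3 chain, read 3.16 in Venus-Mkx, 5.23 in Venus and 5.67 in C3H10T1/2, which with Venus-Mkx below the median of all values does not show a 2-fold difference from Venus. Itga2b, the platelet integrin chain that pairs with it, read 7.78 in Venus-Mkx, 6.39 in Venus and 6.44 in C3H10T1/2. Itgav, which pairs with β3 and β5 in receptors for CCN1 and CCN2, read 10.44 in Venus-Mkx, 11.43 in Venus and 11.59 in C3H10T1/2, a difference of −0.99 from Venus just inside the 2-fold limit. Itgb1 and Itgb5 differed from Venus by −0.53 and −0.29.

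**Figure D4:**
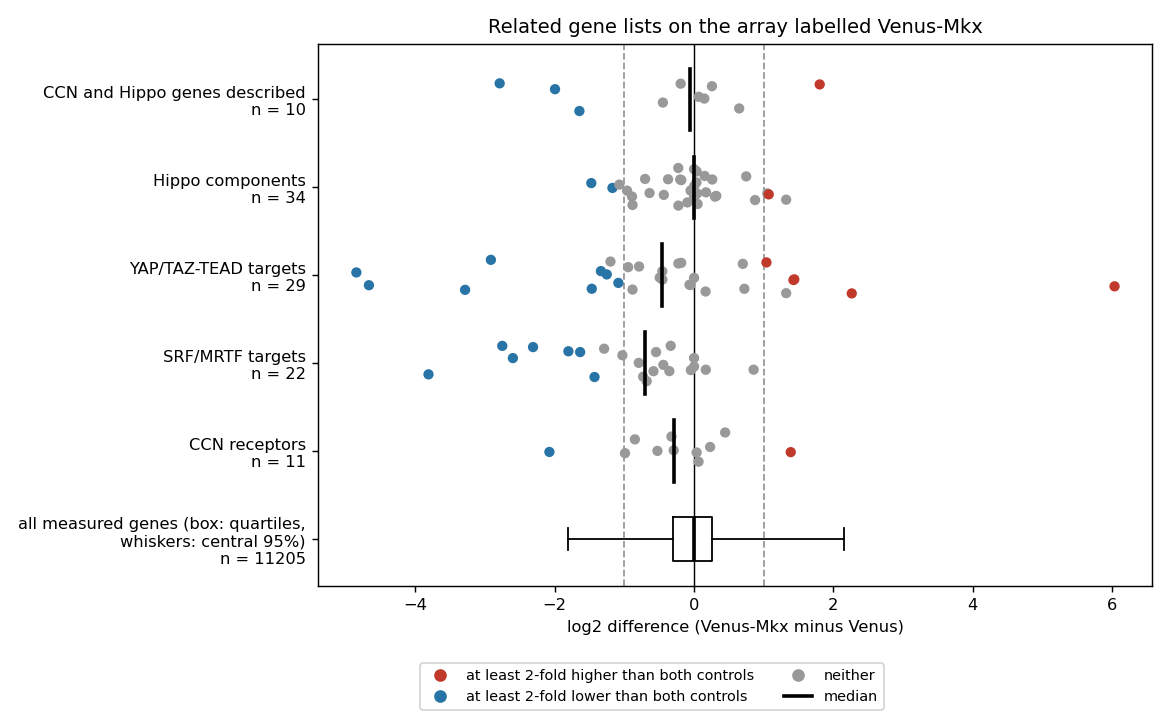
Log2 difference of Venus-Mkx from Venus for the measured genes of each list, 1 array per condition. Points are genes, blue where at least 2-fold lower than both controls and red where at least 2-fold higher, black bars are medians, and the box gives all 11205 measured genes. The median is −0.71 for the SRF and MRTF targets, −0.45 for the YAP and TAZ targets and 0.00 for the Hippo components.

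The measured genes whose pair of differences lay nearest to that of Ccn2, over the 3 arrays, were Kif26b, Gask1b, Rnd1, Gstm2 and Acta2, at distances of 0.06 to 0.13 on the log2 scale. Kif26b is a kinesin-like gene and Gstm2 encodes a glutathione transferase. Gask1b read 8.22 in Venus-Mkx, 11.05 in Venus and 10.91 in C3H10T1/2, and Rnd1 read 4.67, 7.36 and 7.36. Kif26b read 3.76 in Venus-Mkx, below the median of all values, so its distance is not exact. With 3 arrays many genes can lie close by, so this likeness is a description only.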

How the data were processed

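RNA from C3H10T1/2 cells, Venus cells and Venus-Mkx cells was hybridized to 1 Affymetrix array each. The authors deposited log2 values, with array medians of 4.39, 4.34 and 4.34 in Venus-Mkx, Venus and C3H10T1/2. How they were normalized is not settled, since the methods name MAS 5.0 and the submitters' processing notes name RMA, with no version. Values ran from 1.44 to 14.0, and 24.6% of the 45101 probe sets were equal on all 3 arrays. No further normalization was applied, and detection calls were not used.

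Control probe sets (64) and those with several symbols (932) or none (9160) were left out. A probe set of Lats2 that is shared with a neighbouring gene was left out by that rule. Each gene was represented by its probe set of highest mean. Symbols come from a platform annotation, and promoter sequences from RefSeq. Members and gene lists were chosen with earlier results of these data known. Named were every member with every probe set, Mkx, list genes at least 2-fold from both controls (up to 8 a direction), 15 fixed pathway genes and the 5 genes nearest to Ccn2. Markers, Srf, Mrtfa, Mrtfb, Itgav, Itgb1 and Itgb5 were added after values were seen. The code of the calling rule was run on simulated data with less spread between arrays than Venus and C3H10T1/2 show. That run checks the code and cannot tell how often the rule errs on these arrays. Alternatives covered floor, probe sets, scale, control and fold. Python 3.11.15, NumPy 2.4.6, pandas 2.3.3 and matplotlib 3.10.9 were used.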

Additional observations from a re-analysis of the deposited data

How the results depend on the processing

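The call of Ccn2 as lower and of Ankrd1 as higher held under all 12 alternatives. Ccn1 and Ccn3 stayed below the control used in all of them but did not reach a 3-fold difference from both controls, and Ccn3 was not called without the probe sets marked _x_at or _s_at, where it differed by −1.61 from Venus. The counts of called genes moved by over 1.5 times as follows. At 3-fold, 1 of the 10 genes was lower, 0 and 0 Hippo components were lower and higher, 4 and 2 YAP and TAZ targets, 4 SRF targets were lower, 0 receptors were higher, and 279 and 419 of all genes were lower and higher. At 1.5-fold, 1 of the 10 genes was higher in Venus than in C3H10T1/2, 6 and 4 Hippo components were lower and higher, 1 SRF target was higher, 3 receptors were lower, and 1299 and 1341 of all genes were lower and higher. With the floor at the 75th percentile, 1 Hippo component was lower, 3 targets were higher, 0 receptors were lower and 496 of all genes were higher. Over the mean of all probe sets, 0 and 0 Hippo components were lower and higher, and 3 targets were higher. Against Venus alone, 3 Hippo components were higher. Against C3H10T1/2 alone, and likewise against the mean of both controls, 4 Hippo components and 3 receptors were lower and 1 SRF target was higher. With arrays centred on their medians, 2 receptors were lower. With values below the floor raised to it, a setting chosen after seeing the data, 1 Hippo component and 0 receptors were lower. The cause of these shifts beyond the settings themselves was not tested. No paired analysis was possible because each condition has 1 array, and no array could be left out for the same reason. Signal over background limits the low values, since background and signal cannot be separated below the floor.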
